A study of Mus musculus with 4 samples.

Results

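The 10 genes of the unfolded protein response described here, taken by symbol from the deposited gene tables, were followed in lung CD8+ T cells by RNA sequencing: Ern1, Xbp1, Atf4, Ddit3, Hspa5, Dnajb9, Sdf2l1, Calr, Pdia4 and Herpud1. All 10 were found among the 55401 genes of the tables, and all 10 averaged at least 10 CPM (counts-per-million, after TMM scaling between libraries), as did 8433 genes in all. The cells came from lungs of C57BL/6J mice through a CD3+CD8+ gate, and the labels give no genetic change. The 4 groups were IPF-LC mice given a CD4-depleting antibody, IPF-LC mice given an isotype antibody, LC mice given the CD4-depleting antibody and LC mice given the isotype antibody, called depleted IPF-LC, isotype IPF-LC, depleted LC and isotype LC hereafter. The labels do not spell out IPF-LC or LC, nor give the age, the time of sampling or how many mice gave each library. Each group had 1 library, so no value has a replicate error, and no p-value is given for a pair of libraries.

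The unfolded protein response adjusts the folding capacity of the endoplasmic reticulum to the load of new secreted and membrane proteins. It runs through 3 membrane sensors. IRE1, encoded by Ern1, splices the messenger RNA of the transcription factor XBP1; PERK, encoded by Eif2ak3, slows translation while favouring that of ATF4, which induces CHOP, encoded by Ddit3; and ATF6 is cut to release a transcription factor that induces chaperones such as BiP, encoded by Hspa5. In T cells the pathway is engaged on activation, when protein synthesis increases, and IRE1 and XBP1 have been studied in effector CD8 T cells and in T cells of tumours.

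The mRNAs of the sensor Ern1 and of the transcription factors Xbp1, Atf4 and Ddit3 were highest in depleted IPF-LC, with Ern1, Ddit3 and Xbp1 over 2-fold above isotype IPF-LC. The chaperone and folding genes Hspa5, Dnajb9, Sdf2l1, Calr and Pdia4 lay within 1.53-fold of the isotype library in either model, and Herpud1 was lower after depletion in both. In LC mice, Ern1 had 8 counts after depletion against 236 with isotype antibody, while the other 9 genes lay within 2-fold. Of the 10 genes, 6 had their highest level in depleted IPF-LC and 6 their lowest in isotype IPF-LC. No share over all genes was determined for these counts, so they are not read as a trait of the set. Summed without Hspa5, the other 9 came to 1465 CPM in depleted IPF-LC, 1096 in isotype IPF-LC, 1303 in depleted LC and 1227 in isotype LC. In transcripts-per-million (TPM) the same sums were 1147, 848, 1010 and 1040, so the order of the LC pair depends on the unit.

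**Figure D1:**
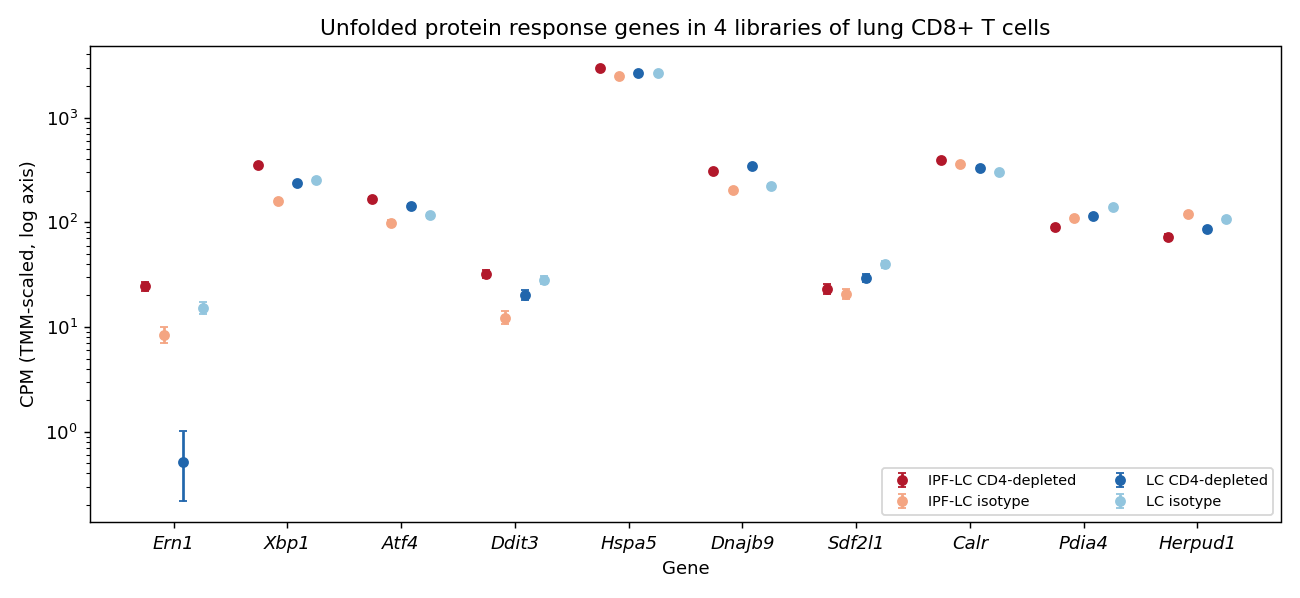
Level of each gene in each library, in TMM-scaled CPM on a log axis, 1 point per library; bars are exact Poisson 95% intervals and cover counting error only. Ern1, Xbp1, Atf4 and Ddit3 are highest in depleted IPF-LC, and Ern1 drops to 0.510 CPM in depleted LC.

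Library totals lay between 14946569 and 16217672 estimated counts, which makes 1 count worth between 0.0638 and 0.0647 CPM. The CD8 T cell markers were present in every library, with sums over the 11 listed genes of 5590 CPM in depleted IPF-LC, 6523 in isotype IPF-LC, 6096 in depleted LC and 5525 in isotype LC. Marker lists of other cell types differed more. The 20 macrophage and monocyte markers summed to 1269 and 3860 CPM in depleted and isotype IPF-LC, and to 216 and 5202 CPM in depleted and isotype LC, where Adgre1, C1qa, Clec7a, Mertk and 4 more of the 20 were at 0 after depletion. Regulatory T cell markers, 7 genes, summed to 586 and 216 CPM in depleted and isotype IPF-LC, and to 522 and 345 CPM in depleted and isotype LC, with none at 0 in any library. The 14 B and plasma cell markers summed to 337 against 505 CPM and to 358 against 425 CPM in the same pairs, with Tnfrsf17 and Ighg1 at 0 throughout. Summed fibroblast markers, 10 genes, were 54.2 against 242.5 CPM and 21.6 against 367 CPM, with Dcn, Lum and Col6a1 at 0 in both depleted libraries. Over the 4 libraries the 7 natural killer cell markers summed to between 43.2 and 110.0 CPM, the 10 endothelial markers to between 158 and 346 CPM, and the 10 lung epithelial markers to between 15.2 and 76.4 CPM, the highest sums in isotype LC. The 7 neutrophil markers summed to at most 98.9 CPM, in isotype LC, with Ly6g at 0 throughout. Single genes weigh heavily in some sums: Ctla4 gave 219 CPM of the regulatory T cell sum in depleted IPF-LC, and Pecam1 128.5 CPM of the endothelial sum in depleted LC. All 7 regulatory T cell markers were nonetheless higher after depletion in both models. Foxp3 had 29.3 and 1.47 CPM in depleted and isotype IPF-LC, and 32.5 and 3.88 CPM in depleted and isotype LC. Whether the listed transcripts came from other cells or from the sorted cells was not tested. The part of other cells in the values below was not tested, and fewer cells of a type cannot be told apart from less RNA per cell.

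Ern1, which encodes the sensor IRE1, was the least abundant of the genes and the one that differed most. It was measured at 24.4 CPM (380 counts) in depleted IPF-LC, 8.45 (132 counts) in isotype IPF-LC, 0.510 (8 counts) in depleted LC and 15.3 (236 counts) in isotype LC. The order was thus CD4-depleted IPF-LC, isotype LC, isotype IPF-LC and CD4-depleted LC, with no overlap of the Poisson intervals between neighbours. The log2 ratio of CD4-depleted over isotype was 1.53 (95% counting interval 1.24 to 1.83) in IPF-LC and -4.82 (-6.13 to -3.90) in LC. Per length of transcript Ern1 stood at 5.56, 1.66, 0.19 and 4.08 TPM (transcripts-per-million) in the order CD4-depleted IPF-LC, isotype IPF-LC, CD4-depleted LC and isotype LC. In the same order the macrophage and monocyte marker sums were 1269, 3860, 216 and 5202 CPM, and a link of Ern1 to them was not tested.

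Xbp1, the transcription factor that IRE1 activates by splicing, was measured at 352.5 CPM in depleted IPF-LC and 159 in isotype IPF-LC, a log2 ratio of 1.14 (1.08 to 1.21). In LC it stood at 235 CPM in the CD4-depleted library and 254 in the isotype library (-0.11, -0.18 to -0.04). The isotype IPF-LC library was the low one and the CD4-depleted IPF-LC library the high one, with the LC pair between them. These are counts of the whole gene, so spliced and unspliced Xbp1 mRNA were not told apart. The deposited transcript length, which differs between libraries, was 1907 bases in depleted IPF-LC, against 2017 in isotype IPF-LC, 1989 in depleted LC and 2017 in isotype LC.

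Atf4, the transcription factor of the PERK branch, was higher after depletion in both models. Its levels were 167 CPM in depleted IPF-LC against 98.98 in isotype IPF-LC (log2 ratio 0.75, 0.66 to 0.84), and 143 CPM in depleted LC against 116 in isotype LC (0.30, 0.21 to 0.39). Since ATF4 protein is controlled mainly at translation, its mRNA level does not report the activity of the branch. Ddit3, whose product CHOP is a target of ATF4 and is known for its part in cell death under lasting stress, had 32.4 CPM in depleted IPF-LC, 12.3 in isotype IPF-LC, 20.3 in depleted LC and 28.1 in isotype LC. The ratios pointed opposite ways, at 1.40 (1.16 to 1.65) in IPF-LC and -0.47 (-0.68 to -0.26) in LC. Another row of the tables carries the symbol Ddit3 and had 0 counts.

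Hspa5 encodes BiP, the main Hsp70 chaperone of the endoplasmic reticulum, which holds the sensors inactive. It was by far the most abundant of the genes per length, averaging 1601 TPM and standing above 98.9% of the 8433 genes, against 272 TPM for Calr, 197 for Xbp1, 166.5 for Dnajb9 and 2.87 for Ern1. Its levels were also close together, at 2969 CPM in depleted IPF-LC, 2497 in isotype IPF-LC, 2678 in depleted LC and 2686 in isotype LC. The log2 ratio for depletion was 0.25 (0.23 to 0.27) in IPF-LC, while the LC pair did not differ beyond counting error (0.00, -0.02 to 0.02). Calr encodes calreticulin, a lectin chaperone for glycoproteins. It stood at 394 and 362 CPM in depleted and isotype IPF-LC (0.12, 0.07 to 0.18), and at 332 and 303 CPM in depleted and isotype LC (0.13, 0.08 to 0.19). On the TPM scale the LC ratio of Calr was -0.02, so its direction there depends on the unit.

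Dnajb9, a co-chaperone of BiP (ERdj4) and an established XBP1 target, was higher after depletion by a similar amount in both models. It had 310.0 CPM in depleted IPF-LC against 205 in isotype IPF-LC (0.60, 0.53 to 0.66), and 343 CPM in depleted LC against 224 in isotype LC (0.61, 0.55 to 0.68). Both depleted libraries lay above both isotype libraries, as for Atf4. Sdf2l1, a partner of BiP and its J-domain co-chaperones, had 23.2 CPM in depleted IPF-LC and 20.6 in isotype IPF-LC (0.17, -0.05 to 0.39), a difference not detectable at this depth. The LC pair stood higher, at 29.4 CPM in the CD4-depleted library and 39.5 in the isotype library (-0.43, -0.60 to -0.25).

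Pdia4, a disulfide isomerase, and Herpud1, a membrane protein of the machinery that exports misfolded proteins for degradation, were lower after depletion in both models. Pdia4 had 89.8 CPM in depleted IPF-LC against 109.5 in isotype IPF-LC (-0.29, -0.39 to -0.18), and 114 CPM in depleted LC against 140 in isotype LC (-0.29, -0.38 to -0.20). Herpud1 had 72.2 CPM in depleted IPF-LC against 121 in isotype IPF-LC (-0.74, -0.85 to -0.63), and 85.55 CPM in depleted LC against 107 in isotype LC (-0.32, -0.43 to -0.22). For Herpud1 both isotype libraries lay above both depleted ones. For Pdia4 the LC pair lay above the IPF-LC pair.

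Promoter windows are shown for Hspa5, Calr and Herpud1 because they hold a known response element of this pathway and because their depletion ratios in IPF-LC differ in sign. They are the 250 bases before the transcription start, from RefSeq in build GRCm38.p6, an older build than the GRCm39 of the expression data; all 10 genes had such a window. Capitals mark matches of the longer elements named here, not of CCACG alone, found by text search on either strand of the 300-base windows that reach 50 bases past the start. The ER stress response element, CCAAT and CCACG 9 bases apart, was matched in 2 of the 10 genes, Hspa5 at 65 to 47 bases before the start and Calr at 162 to 144 bases on the opposite strand. It was matched in 0.137% of 27025 genes with a window. Its second form, ATTGG and CCACG 1 base apart, was matched in Herpud1 at 52 to 42 bases before the start and in 0.0444% of genes. Herpud1 also held a C/EBP-ATF response element, TGATGNAA, at 112 to 105 bases on the opposite strand, as did 4.51% of genes. The unfolded protein response element TGACGTGG was matched in 0 of the 10 and in 0.714% of genes, and CCACG alone in 8 of the 10 and in 35.5% of genes. A match is a description of letters, not evidence of binding.
Hspa5 promoter, GRCm38.p6 chr2:34771840-34772089, plus strand: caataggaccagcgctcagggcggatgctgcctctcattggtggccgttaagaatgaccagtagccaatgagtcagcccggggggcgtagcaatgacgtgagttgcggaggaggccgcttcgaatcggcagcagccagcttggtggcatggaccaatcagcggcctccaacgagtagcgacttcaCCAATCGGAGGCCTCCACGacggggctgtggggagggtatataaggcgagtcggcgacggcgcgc
Calr promoter, GRCm38.p6 chr8:84846932-84847181, minus strand: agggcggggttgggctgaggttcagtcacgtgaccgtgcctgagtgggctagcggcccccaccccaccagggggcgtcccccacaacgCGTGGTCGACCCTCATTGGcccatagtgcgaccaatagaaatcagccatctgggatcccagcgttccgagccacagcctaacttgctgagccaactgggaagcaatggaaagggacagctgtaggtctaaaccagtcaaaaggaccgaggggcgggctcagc
Herpud1 promoter, GRCm38.p6 chr8:94386179-94386428, plus strand: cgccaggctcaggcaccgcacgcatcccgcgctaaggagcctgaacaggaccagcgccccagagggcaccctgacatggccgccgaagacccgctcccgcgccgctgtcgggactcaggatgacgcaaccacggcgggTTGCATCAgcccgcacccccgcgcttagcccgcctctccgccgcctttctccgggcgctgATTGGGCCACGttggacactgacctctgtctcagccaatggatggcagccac
Depletion ratios in IPF-LC were 0.25 for Hspa5, 0.12 for Calr and -0.74 for Herpud1. These genes were picked partly for these ratios, so the ratios show no link to the elements, and such a link was not tested.

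The first comparison sets CD4 depletion against isotype antibody within IPF-LC. Of the 10 genes, 3 reached a 2-fold higher level with depletion (Ern1, Ddit3 and Xbp1), against 4.08% of the 8433 genes, and 0 were at least 2-fold lower, against 6.02%. The genes, and the lists below, were chosen with earlier results of these data known. Shares set beside all genes, here and below, are therefore description and not a test. The median log2 ratio of the 10 was 0.42, with 8 above 0, and that of all 8433 genes was 0.002, with 50.1% above 0. Counting intervals left out 0 for 9 of the 10, but they do not cover differences between mice. The share of all genes with such an interval was not determined. Among genes averaging at least 50 CPM, the only one of the 10 at least 2-fold higher was Xbp1, as Ern1 and Ddit3 average less. The share of all genes at that minimum is not given here, so this count is not read further. In LC mice, 0 of the 10 reached a 2-fold higher level with depletion, against 2.59% of genes, and 1, Ern1, was at least 2-fold lower, against 5.85%. There the median of the 10 was -0.20, with 3 above 0, and that of all genes 0.057, with 56.05% above 0.

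**Figure D2:**
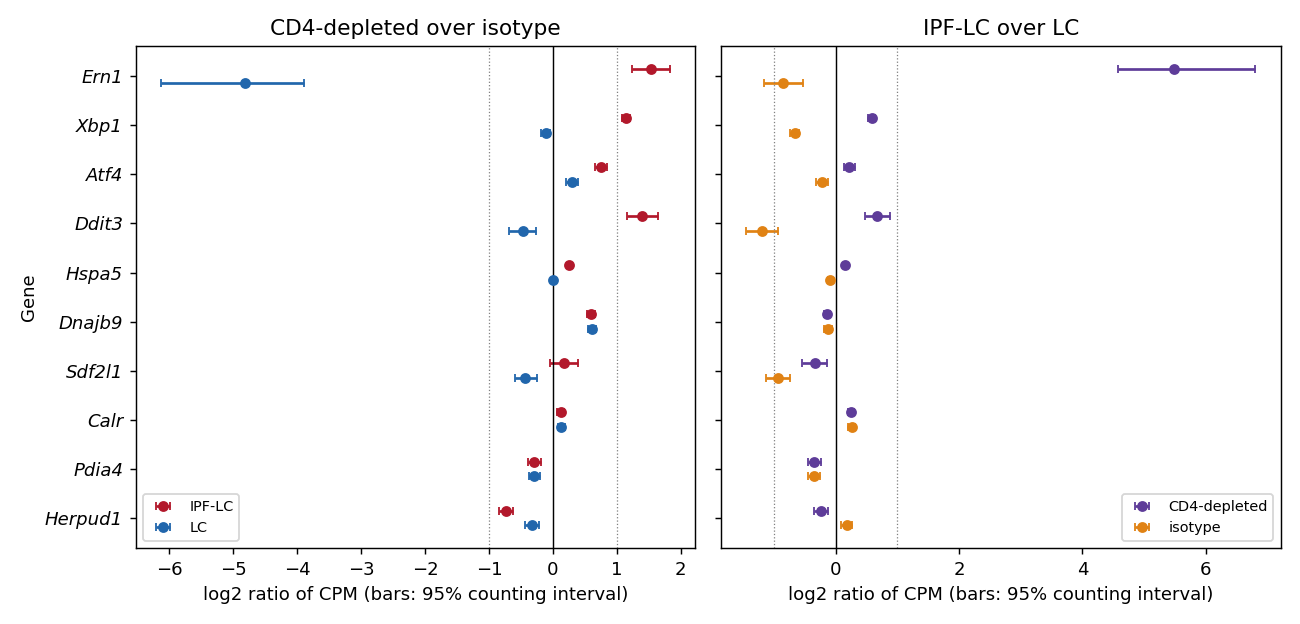
Log2 ratios of CPM for each gene, CD4-depleted over isotype in IPF-LC and LC (left) and IPF-LC over LC after depletion and with isotype antibody (right); bars are 95% counting intervals and dotted lines mark 2-fold. Ern1, Xbp1 and Ddit3 lie beyond 2-fold for depletion in IPF-LC, and Ern1 lies at -4.82 for depletion in LC.

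The depletion comparisons of the models share no library. Atf4, Dnajb9 and Calr were higher after depletion in both, Pdia4 and Herpud1 lower in both, and the other 5 had a positive ratio in IPF-LC and a negative one in LC, although for Hspa5 the LC value was within counting error of 0. This makes 5 of 10 in the same direction, beside 57.7% of the 8433 genes. The difference of the depletion ratios, IPF-LC minus LC, was at least 2-fold positive for 3 of the 10, against 8.05% of genes, and at least 2-fold negative for 0, against 6.33%. The 3 were Ern1 at 6.34, Ddit3 at 1.87 and Xbp1 at 1.25. With 1 library a group, this difference has no test.

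IPF-LC was also set against LC within each antibody, in comparisons that use the same 4 libraries. After depletion, 1 of the 10 was at least 2-fold higher in IPF-LC (Ern1, 5.49, 4.58 to 6.80), against 3.3% of genes, and 0 were 2-fold lower, against 2.57%. Ddit3 had a ratio of 0.67 (0.47 to 0.88) and Xbp1 one of 0.58 (0.52 to 0.64). With isotype antibody, 0 of the 10 were at least 2-fold higher in IPF-LC, against 1.91% of genes, and 1, Ddit3, was at least 2-fold lower (-1.19, -1.45 to -0.94), against 4.1%. Of the 10, 8 lay below 0 there, with a median of -0.29. Over all genes the median was 0.023, with 52.54% above 0. The genes below 0 included Sdf2l1 at -0.94 (-1.14 to -0.74), Ern1 at -0.85 (-1.17 to -0.54) and Xbp1 at -0.67 (-0.74 to -0.60). On the TPM scale Ern1 and Sdf2l1 also passed 2-fold, at -1.25 and -1.01. This comparison and depletion in IPF-LC share the isotype IPF-LC library, which held the lowest level of 6 of the 10, a count without a share over all genes.

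The libraries were tested together in edgeR's quasi-likelihood framework, fitting mouse model and antibody as additive effects; the 1 residual degree of freedom is their interaction. This fit called 0.0% of 13050 genes for depletion and 0.0% for model at a Benjamini-Hochberg adjusted p under 0.05. At an unadjusted p under 0.05 it had 430 genes higher and 788 lower for depletion, and 99 and 143 for model. Dnajb9 had the smallest unadjusted p of the 10 for depletion (log2 change 0.61, SE 0.157, edgeR adjusted p = 0.462, higher in the depleted library of both models). Next came Atf4 (0.52, SE 0.197, adjusted p = 0.533) and Herpud1 (-0.53, SE 0.201, adjusted p = 0.533). Xbp1 had a change of 0.52 (SE 0.340, adjusted p = 0.734) and Ern1 one of -1.43 (SE 2.15, adjusted p = 0.907), both with ratios of opposite sign in the models. None of the 10 was called by edgeR, DESeq2 or limma-voom in any setting tried.

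The rest of the pathway was described through 5 lists of textbook genes, which hold 81 further genes found in the tables, 71 of them averaging at least 10 CPM. Over these 71, 3 were at least 2-fold higher and 1 lower after depletion in IPF-LC, and 0 higher and 2 lower in LC, with medians of -0.02 and -0.01. Over all 8433 genes the shares were 4.08% higher and 6.02% lower in IPF-LC, and 2.59% higher and 5.85% lower in LC. In the additive edgeR model 0 of the 100 tested genes of these lists and the heat shock list, the 10 included, were called for depletion. At an unadjusted p under 0.05 there were 10 of these 100, beside 430 genes higher and 788 lower of all 13050. The count of 10 is therefore not read as a result about the lists.

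The list of sensors and eIF2alpha kinases joins the sensor genes with Xbp1, Atf6b, Eif2ak1, Eif2ak2 and Eif2ak4, so not all its genes encode sensors of this pathway. Among its 8 genes, Ern1 and Xbp1 included, 4 reached a 2-fold higher level with depletion in IPF-LC (median 0.68). In LC 1 gene, Ern1, was at least 2-fold lower (median -0.08). Without Ern1 and Xbp1, 2 of 6 reached it in IPF-LC, beside 4.08% of all genes, and 3 lay above and 3 below 0 with a median of 0.06. Eif2ak3, which encodes PERK, had 168 CPM in depleted IPF-LC and 78.5 in isotype IPF-LC (1.10, 1.00 to 1.19), and 104 CPM in depleted LC and 82.0 in isotype LC (0.34, 0.24 to 0.45). Atf6, the remaining sensor, had 34.8 and 17.3 CPM in depleted and isotype IPF-LC (1.01, 0.80 to 1.23), and 36.9 and 54.55 CPM in depleted and isotype LC (-0.56, -0.72 to -0.41). The Atf6 value in IPF-LC lies at the edge of 2-fold: its interval reaches below it, and on the TPM scale the levels were 6.29 and 3.25 in depleted and isotype IPF-LC, which is under 2-fold. The ATF6 relative Atf6b had a ratio of -0.80 (-0.96 to -0.64) in IPF-LC and 0.08 (-0.07 to 0.23) in LC.

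Of 17 measured genes of the folding list, Hspa5, Calr, Pdia4 and Sdf2l1 included, 0 were 2-fold apart for depletion in either model. Of all 8433 genes, 4.08% were at least 2-fold higher and 6.02% lower in IPF-LC, and 2.59% and 5.85% in LC. The count of 0 is therefore not read as a trait of the list. The medians were -0.04 in IPF-LC and -0.05 in LC. The range in IPF-LC ran from -0.53 for Dnajc3, an inhibitor of PERK and co-chaperone of BiP, to 0.44 for Txndc5, a disulfide isomerase. Hsp90b1, the Hsp90 of the endoplasmic reticulum, had ratios of -0.35 (-0.39 to -0.31) in IPF-LC and -0.53 (-0.57 to -0.49) in LC. Hyou1, a large chaperone that aids BiP, had ratios of -0.03 (-0.23 to 0.18) and 0.57 (0.35 to 0.78).

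Genes of protein entry and early transport, many of them XBP1 targets, had a median of 0.00 in each model. For depletion 0 of 18 were at least 2-fold apart. Of all genes, 4.08% were at least 2-fold higher and 6.02% lower in IPF-LC, and 2.59% and 5.85% in LC. Sec24d, a coat protein of transport vesicles, had 67.8 CPM in depleted IPF-LC against 34.3 in isotype IPF-LC (0.98, 0.83 to 1.14), and 35.3 CPM in depleted LC against 56.1 in isotype LC (-0.67, -0.83 to -0.51). Ssr1, a subunit of the translocon-associated complex, had ratios of 0.73 (0.66 to 0.80) and -0.20 (-0.27 to -0.14) in IPF-LC and LC, and Sec61a1, the channel subunit, 0.55 (0.50 to 0.61) and 0.08 (0.03 to 0.14). The degradation list, with 17 of 18 genes averaging 10 CPM, also had 0 genes 2-fold apart, beside the same shares of all genes. Its ubiquitin-conjugating enzyme Ube2j1 had ratios of 0.85 (0.79 to 0.90) in IPF-LC and 0.26 (0.20 to 0.31) in LC, whereas the mannosidase-like Edem2 had -0.78 (-0.93 to -0.64) and 0.02 (-0.13 to 0.17).

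The PERK-ATF4-CHOP list held genes on both sides. Of its 30 genes 21 averaged at least 10 CPM. Of these, 2 were at least 2-fold higher and 1 lower after depletion in IPF-LC, beside 4.08% and 6.02% of all genes. In LC 0 were higher and 2 lower, beside 2.59% and 5.85%. The medians were 0.03 in IPF-LC and -0.08 in LC. Genes under that mean are outside these counts, among them Slc7a11, with 27.8 CPM in isotype LC and 0 in depleted LC. In the same order Asns had 16.9 and 1.34 CPM and Nupr1 10.2 and 0.319, whereas Ddit4 had 3.04 and 7.4. Slc3a2, the shared chain of amino acid transporters, had 468 CPM in depleted IPF-LC and 194 in isotype IPF-LC (1.27, 1.21 to 1.34), beside 321 and 302 CPM in depleted and isotype LC (0.09, 0.03 to 0.15). Cars, a tRNA synthetase, went opposite ways, at 0.91 (0.67 to 1.16) in IPF-LC and -1.20 (-1.41 to -1.0) in LC. Cebpg, which encodes a dimer partner of ATF4, was lower after depletion in IPF-LC (-1.26, -1.47 to -1.06), with 0.05 (-0.11 to 0.20) in LC. Atf3, a stress-induced transcription factor, was lower in LC, with 31.1 CPM in the CD4-depleted library against 195 in the isotype library (-2.65, -2.79 to -2.51), and had a ratio of -0.48 (-0.61 to -0.34) in IPF-LC.

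**Figure D3:**
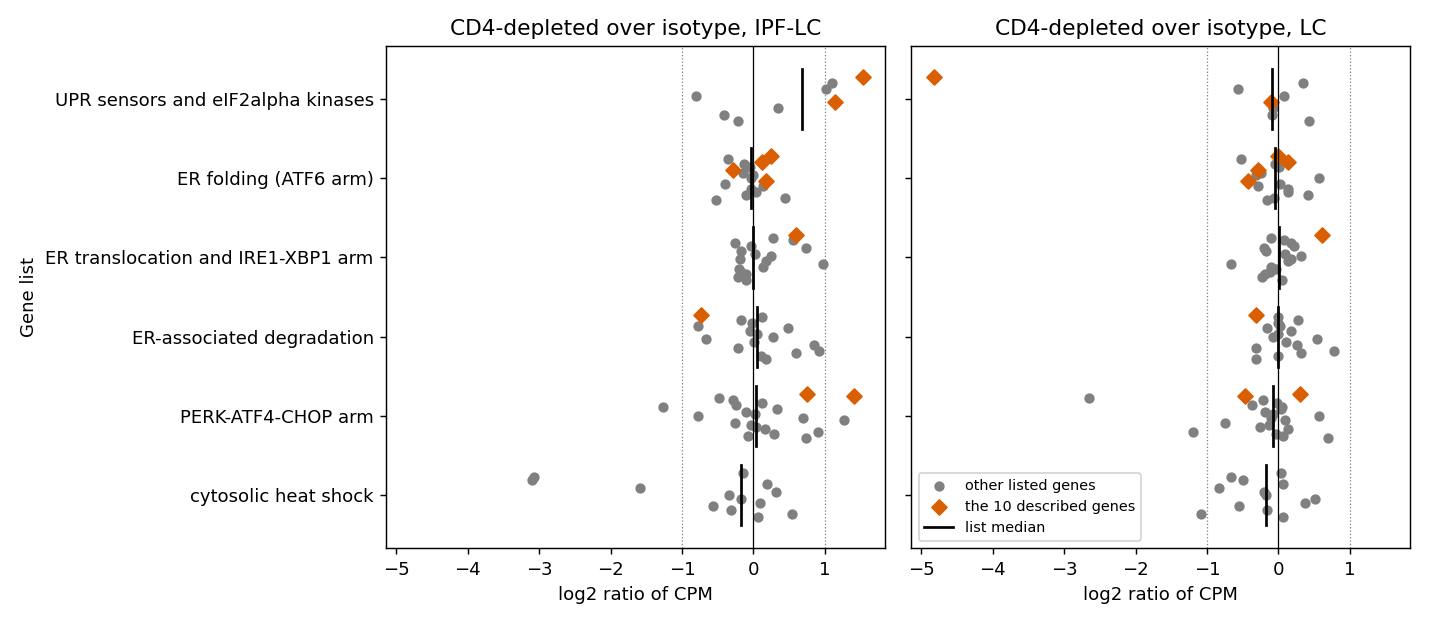
Log2 ratios of CPM, CD4-depleted over isotype, in IPF-LC (left) and LC (right) for genes averaging at least 10 CPM in 5 lists of the pathway and in the cytosolic heat shock list; diamonds are the 10 described genes, circles the other listed genes, bars the list medians and dotted lines 2-fold. The folding list shows no gene beyond 2-fold in either model. In the list of sensors and eIF2alpha kinases, 4 of the 8 genes (Ern1, Xbp1, Eif2ak3 and Atf6) lie beyond it in IPF-LC. Of all 8433 genes, 4.08% were at least 2-fold higher and 6.02% lower in IPF-LC, and 2.59% and 5.85% in LC.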

How the data were processed

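RNA was measured in 4 libraries of sorted lung CD8+ T cells, 1 a group, assigned by the labels; the tables' own names use different terms for the models. The submitters' processing notes list, without roles, RSEM 1.3.3, STAR 2.7.11a, MultiQC 1.25.2 and fastp 0.23.4, with build GRCm39; the annotation release is not given in the sources used here. The deposited expected counts are the authors' estimated reads per gene, not normalised; between 5.49 and 5.89% were not whole. They were rounded and scaled with TMM factors between 0.961 and 1.03 (edgeR 4.0.16). The deposited TPM values, length-corrected by the authors, served to compare genes and as an alternative. The deposited FPKM values were not used. Gene lengths, in bases per the file headers, differ between libraries.

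Ratios used a prior count of 0.5 and exact conditional binomial 95% intervals; levels have exact Poisson ones. Both cover counting error only, as the labels name no molecular identifiers. DESeq2 1.42.0 and limma 3.58.1 were alternatives to edgeR. The edgeR test was two-sided, on genes passing filterByExpr. The genes and lists were chosen with earlier results of these data known. Besides the 10 genes, up to 4 genes a list, with the largest ratio for depletion in either model, were named, and 5 of most similar pattern; some are not reported here. Where rows share a symbol, the higher one stands for it.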

Additional observations from a re-analysis of the deposited data

Results flagged for a closer look

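For 3 of the 10 genes the depletion ratios of the models had opposite signs with both counting intervals clear of 0. Ern1 was higher after depletion in IPF-LC (1.53) and lower in LC (-4.82), a difference of 6.34 on the log2 scale. For Ddit3 the ratios were 1.40 and -0.47, a difference of 1.87. For Xbp1 they were 1.14 and -0.11, a difference of 1.25, of which the LC part is small. With 1 library a group the differences between the models were not tested.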

How the results depend on the processing

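Medians of the 10 genes stayed within counting error in each comparison under RLE scaling, upper-quartile scaling, library totals, TPM and a prior count of 2. Of 250 single-gene ratios under these 5 alternatives, 227 moved by less than counting error, 22 moved by more and 1 reversed: Calr for depletion in LC, at -0.02 with TPM. For the additive model, limma-voom reversed Ern1 for depletion (0.13) and Atf4 for model (0.0097); DESeq2 called 99 genes higher and 380 lower for depletion and 0 higher and 5 lower for model, none of the 10 among them. No paired analysis was possible because the labels give no replicate numbers and each group has 1 library.

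Counts at a fold depend on the fold and the minimum level. At 1.5-fold, 5 of the 10 were higher and 1 lower for depletion in IPF-LC, 1 higher in LC, 2 higher for IPF-LC over LC after depletion, and 4 lower for IPF-LC over LC with isotype antibody. At a mean of at least 50 CPM, 1 was higher for depletion in IPF-LC, 0 were lower for depletion in LC, 0 were higher for IPF-LC over LC after depletion, 0 were lower with isotype antibody, and 1 had a positive difference. With isotype antibody, 3 were lower with TPM and 0 with the whole counting interval beyond 2-fold, without a count over all genes here. Counts over all genes follow the order depletion in IPF-LC, depletion in LC, IPF-LC over LC after depletion, the same with isotype antibody, and the difference. Of the 8433 genes, 1.5-fold gave 1097, 783, 771, 712 and 1430 higher and 1262, 929, 725, 856 and 1386 lower. A mean of at least 1 CPM gave 1081, 714, 1173, 651 and 2094 higher and 1665, 1889, 931, 1427 and 1394 lower, and one of 50 CPM gave 118, 67, 32, 27 and 136 higher and 66, 70, 11, 48 and 105 lower. The numbers of genes with a mean of at least 1 or 50 CPM are not given here, so these counts have no share. The main counts, also of the 8433 genes, were 344, 218, 278, 161 and 679 higher and 508, 493, 217, 346 and 534 lower. With the whole interval beyond 2-fold, 207, 133, 176 and 59 were higher in the first 4, and 325 and 102 lower for depletion in IPF-LC and for IPF-LC over LC after depletion. Depth limits Ern1 most, with 8 counts in depleted LC.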

Other observations

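Of 13 heat shock genes of the cytosol, 3 were at least 2-fold lower and 0 higher after depletion in IPF-LC, beside 6.02% lower and 4.08% higher of all genes. In LC 1 was lower and 0 higher, beside 5.85% and 2.59%. The medians were -0.18 in IPF-LC and -0.17 in LC. Hspa1a and Hspa1b, near-identical genes for the inducible Hsp70 between which reads may be split, had 5.77 and 5.90 CPM after depletion and 48.8 and 50.9 CPM with isotype antibody in IPF-LC mice. In LC mice they had 24.9 and 27.3 CPM in the CD4-depleted library, against 39.7 and 38.2 CPM in the isotype library. Hsph1, a partner of Hsp70, had ratios of -1.59 (-1.69 to -1.49) in IPF-LC and -0.83 (-0.91 to -0.74) in LC, and Bag3, another partner, 0.54 (0.28 to 0.81) and -1.09 (-1.34 to -0.86).

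The 10 genes did not share a pattern over the 4 libraries. The root mean square distance of each gene's centred log2 CPM from their mean profile ran from 0.213 for Hspa5 to 1.91 for Ern1, which weighs most in that profile. In depleted LC the mean profile was -0.33 and Ern1, with 8 counts, lay at -3.57. The others lay between -0.14 and 0.38 there. Among 4183 other genes averaging at least 50 CPM, the nearest to the mean profile were Cyb5r3 (0.037), Pip5k1c (0.038), Prdm4 (0.043), Id2 (0.044) and Jarid2 (0.045). Within 0.1 lay 28, and the median distance was 0.326. Nearness to a profile without Ern1 was not determined. Immediate early genes, 11 in all, summed to 5250 against 5806 CPM in depleted and isotype IPF-LC and to 5044 against 6134 CPM in depleted and isotype LC. The 14 proliferation genes summed to 906 against 724 CPM and 1523 against 961 CPM in the same pairs. A link of either list to the 10 genes was not tested.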
